A study of Sus scrofa with 20 samples.

Results

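Resident macrophage and Kupffer cell markers were examined in RNA-seq libraries of liver and backfat, the subcutaneous fat of the back, of Nanchukmacdon pigs. The list holds 10 gene symbols, taken by symbol with no threshold on a measured value: CD163, MARCO, VSIG4, TIMD4, CD5L, MRC1, CSF1R, CD68, SPI1 and TREM2. Symbols were matched to pig Ensembl identifiers, and 9 of the 10 have one in the table of 31907 genes. CD5L, a secreted scavenger protein of macrophages, had no identifier under that symbol and was left out. Each of the 9 had enough reads to be among the 16275 genes tested. Bulk tissue came from 5 boars, labelled WT, normal in disease state and 22 months of age (the study's methods give another average age), with no treatment, and each tissue has 5 libraries. Libraries are named by tissue and by the boar number in the column names, since the replicate numbers of the labels could not be tied to boars. Whole-genome bisulfite libraries of the same tissues carry no gene positions in their processed form and were not used here.

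The libraries held from 43820042 to 61772737 counted read pairs. Hepatocyte markers (ALB, SERPINC1, TF, FGB and TTR) summed to between 69190 and 84090 CPM in 4 liver libraries and to 17870 CPM in liver 67, and adipocyte markers (ADIPOQ, PLIN1, FABP4, CIDEC and LIPE) to between 9300 and 12880 CPM in backfat and 10.96 to 15.71 CPM in liver. CPM are counts scaled to a common library size with TMM factors, which take most genes to be alike in the tissues. In 2 libraries other markers stood apart from their tissue. Backfat 69 held 89.2 CPM of the hepatocyte markers, against 2.74 to 3.38 CPM in the other backfat libraries. Liver 67 had 44.5% of its counts on the 13 protein-coding mitochondrial genes, against 6.38% to 20.2% in the other 9 libraries. For the listed genes that were highest in one of these libraries, the value without it is also given. For related genes it is given for some only.

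Macrophages live in almost every tissue, and those of the liver sinusoids, the Kupffer cells, clear bacteria, complement-coated particles, dying cells and haemoglobin from portal blood. Macrophages in general depend on the receptor CSF1R and on the transcription factor PU.1, which SPI1 encodes, while receptors such as MARCO, VSIG4, TIMD4 and CD163 mark settled, clearing macrophages. TREM2 is known for macrophages that gather around fat cells and take up lipid.

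PU.1 binds purine-rich sites around a GGAA core. The sequence around the gene start was therefore searched for letters of this kind in 9 of the listed genes, CD5L included. Starts are those of the RefSeq annotation of Sscrofa11.1, and matches were sought on both strands from 250 bases before the start to 50 bases after it. The letters AGGAAGT, a PU.1 and ETS site, were found for 3 of the 9 genes (MARCO, CSF1R and CD68) and in 6.66% of 19556 promoters of the same length. The shorter PU.1 letters GAGGAA were found for 5 of the 9 (VSIG4, TIMD4, CD5L, MRC1 and TREM2) and in 25.9% of promoters. CD163 held neither. These matches are of letters only, and the start that macrophages use may differ from the annotated one. The 250 bases before the start are shown 5′ to 3′ for TIMD4, which differed strongly between tissues, and for the broad macrophage genes CSF1R and CD68. Capitals mark every match to either set of PU.1 letters, the AP-1 letters TGANTCA, the MAF letters TGCTGAC or the TATA box letters TATAAA on either strand, and the last base shown for TIMD4 opens a MAF match that runs past the start.
TIMD4, chr16:66253322-66253571, plus strand: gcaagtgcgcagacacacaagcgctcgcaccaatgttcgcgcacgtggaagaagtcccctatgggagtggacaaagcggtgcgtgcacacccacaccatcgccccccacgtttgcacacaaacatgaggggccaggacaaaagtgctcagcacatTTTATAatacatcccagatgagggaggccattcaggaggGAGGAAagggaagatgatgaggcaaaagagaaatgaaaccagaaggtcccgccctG
CSF1R, chr2:151130312-151130561, minus strand: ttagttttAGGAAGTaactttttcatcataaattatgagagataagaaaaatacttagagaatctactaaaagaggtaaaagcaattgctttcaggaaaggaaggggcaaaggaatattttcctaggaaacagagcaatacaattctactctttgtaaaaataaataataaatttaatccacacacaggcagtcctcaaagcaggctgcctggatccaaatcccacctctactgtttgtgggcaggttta
CD68, chr12:52874504-52874753, plus strand: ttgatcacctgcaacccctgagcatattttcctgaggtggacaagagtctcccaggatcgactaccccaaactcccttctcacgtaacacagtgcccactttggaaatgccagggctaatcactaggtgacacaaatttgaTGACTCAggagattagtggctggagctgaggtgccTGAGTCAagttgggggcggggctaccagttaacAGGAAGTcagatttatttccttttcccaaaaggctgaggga
CD68 holds AP-1 letters at -109 and -74 and AGGAAGT at -41, counted from the start. AP-1 letters were found for 2 of the 9 genes and in 6.07% of promoters, MAF letters for 1 and in 3.19%, and TATA letters for 1 and in 10.9%.

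The question was whether these markers differ between the tissues. Of the 9 genes, 6 were higher in liver at an adjusted p of at most 0.05 (quasi-likelihood test of edgeR, adjusted by Benjamini-Hochberg over all 16275 genes), where 27% of all genes tested were higher in liver. These were MARCO, TIMD4, VSIG4, CD163, SPI1 and MRC1. None of the 9 was higher in backfat at that threshold, where 28% of all genes were. The count was 0 by edgeR, 0 by DESeq2 and 0 by limma-voom, and 0 at an unadjusted p under 0.05 in edgeR. In 4 of the 9, CD163, MARCO, VSIG4 and TIMD4, every liver library was above every backfat library, as in 19.7% of all genes, and in none was backfat wholly above liver, as in 22.9%. The median log2 fold change of backfat against liver was -0.80 for the 9 genes and 0.00 for all genes tested. With a log2 fold change of at least 2 required as well, a limit the study also used, 2 of the 9 (MARCO and TIMD4) were higher in liver, against 11.2% of all genes. In bulk tissue, fewer cells of a type and less RNA per cell cannot be told apart. Scaled by library size alone, without TMM factors, the median of all genes moved by 0.71 towards backfat, 3 of the 9 genes (MARCO, VSIG4 and TIMD4) were higher in liver and 1 (TREM2) was higher in backfat, while over all genes 2329 were higher in liver and 8225 in backfat.

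**Figure D1:**
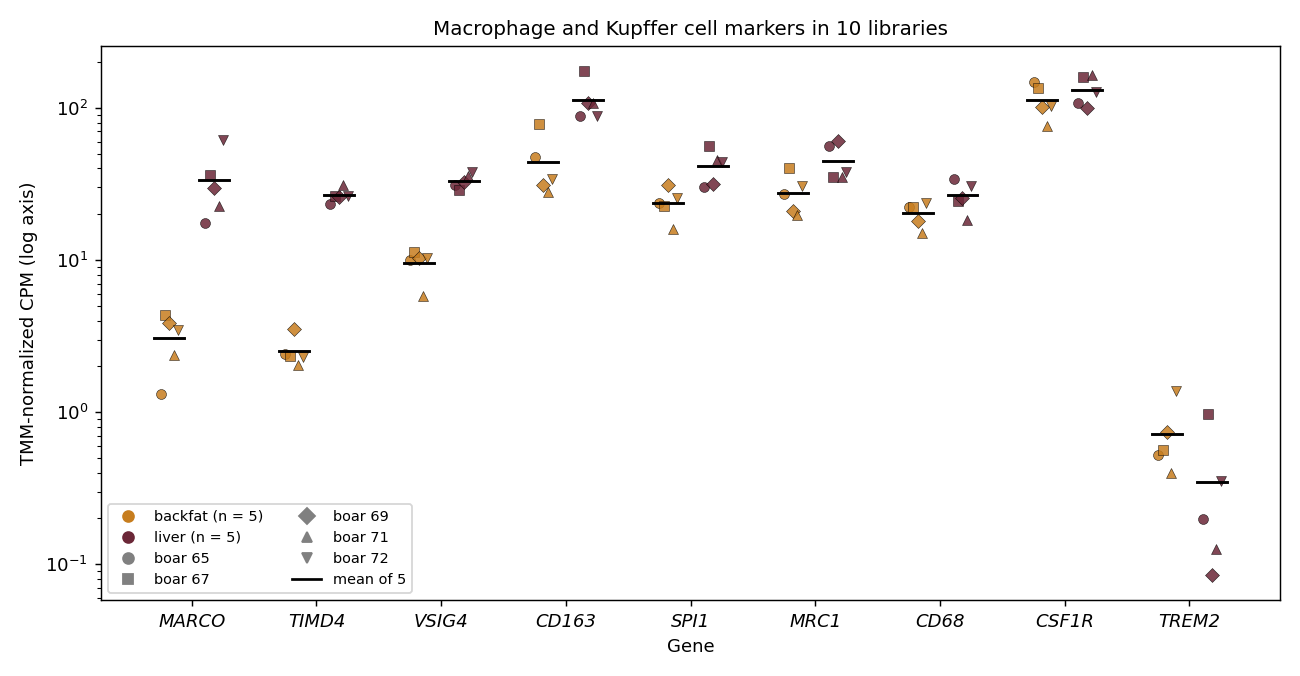
TMM-normalized CPM on a log axis for 9 marker genes, with 1 point per library (5 backfat, 5 liver), the shape giving the boar and the bar the mean. The liver points of MARCO, TIMD4, VSIG4 and CD163 lie above all backfat points, and those of the other 5 genes overlap.

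MARCO and CD163 are scavenger receptors with cysteine-rich domains. MARCO (ENSSSCG00000015716, chr15:24502935-24541286, plus strand of Sscrofa11.1), which binds bacteria and inhaled or circulating particles, had the largest fitted difference of the list, just ahead of TIMD4. In backfat MARCO was at 1.31, 4.36, 3.85, 2.36 and 3.45 CPM in boars 65, 67, 69, 71 and 72. In liver it was at 17.6, 36.0, 29.8, 22.5 and 61.8 CPM in the same boars. The highest backfat library thus lay well under the lowest liver library, and liver was the higher tissue in 5 of 5 boars. Backfat averaged 3.07 ± 1.23 CPM and liver 33.5 ± 17.3 CPM (SD, n = 5 each), with a fitted log2 fold change of -3.45 (standard error 0.40, edgeR adjusted p = 1.37e-05). Among the 6 called, MARCO also had the widest spread in liver relative to its mean, with a coefficient of variation of 51.5%. Without its highest library, liver 72, the log2 fold change was -3.15, smaller in size than that of TIMD4 at -3.44.

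CD163 (ENSSSCG00000033146, chr5:63300200-63334497, plus strand), the haptoglobin-haemoglobin receptor, was higher in liver by less. Backfat held 47.2, 78.4, 30.9, 28.2 and 34.2 CPM in boars 65, 67, 69, 71 and 72. Liver held 88.0, 174.2, 107.8, 108.2 and 88.5 CPM. The tissues did not overlap, but backfat 67 came close to the lowest liver libraries. Backfat averaged 43.8 ± 20.7 CPM and liver 113.4 ± 35.5 CPM (SD, n = 5 each), with a fitted log2 fold change of -1.37 (standard error 0.30, edgeR adjusted p = 0.00198). The library of boar 67 was the highest in both tissues, and without liver 67 the log2 fold change was -1.20 (edgeR adjusted p = 0.00355). With library size alone it was -0.61 and did not pass (edgeR adjusted p = 0.108).

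MRC1 (ENSSSCG00000011038, chr10:44107926-44226734, plus strand), the mannose receptor, is carried by many tissue macrophages and also by endothelial cells of the liver sinusoids. Its backfat values were 27.0, 40.0, 21.1, 19.8 and 30.6 CPM in boars 65, 67, 69, 71 and 72. Its liver values were 56.4, 35.1, 60.7, 34.9 and 37.6 CPM. Liver 65 and liver 69 were high, the other 3 liver libraries lay under backfat 67, and in boar 67 backfat was the higher tissue. The log2 fold change was -0.70 (standard error 0.24, edgeR adjusted p = 0.0242, 95% interval -1.24 to -0.15). The call was lost without backfat 69, backfat 71, liver 65 or liver 69, with edgeR adjusted p-values from 0.0594 to 0.0664, and with library size alone, where the log2 fold change was -0.01. Markers of sinusoidal endothelium with an identifier (OIT3, CLEC4G and CLEC1B) summed to between 0.309 and 0.522 CPM in backfat and between 181.7 and 288.1 CPM in liver. None of the 3 was at 0 counts throughout a tissue. Their part in the MRC1 difference was not tested.

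VSIG4 and TIMD4 take up what other molecules have tagged. VSIG4 (ENSSSCG00000035170, chrX:52175601-52198635, minus strand), the complement receptor CRIg, binds C3b and iC3b. In backfat it was at 10.1, 11.3, 10.3, 5.84 and 10.3 CPM in boars 65, 67, 69, 71 and 72, and backfat 71 stood apart below the others. In liver it was at 31.2, 28.8, 32.5, 35.8 and 37.7 CPM, a narrow range for these genes. Every liver library was above every backfat library. The log2 fold change was -1.80 (standard error 0.19, edgeR adjusted p = 5.52e-06), with averages of 9.55 ± 2.13 CPM for backfat and 33.2 ± 3.57 CPM for liver (SD, n = 5 each). Without backfat 71 it was -1.66.

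TIMD4 (ENSSSCG00000017062, chr16:66253572-66292963, plus strand), a receptor for phosphatidylserine on dying cells, had the smallest adjusted p of the list. Backfat held 2.41, 2.33, 3.53, 2.04 and 2.30 CPM in boars 65, 67, 69, 71 and 72. Liver held 23.4, 26.3, 26.0, 30.9 and 26.5 CPM. The liver level was thus nearly the same in all 5 boars, with a coefficient of variation of 10.1%, and about as far above backfat as that of MARCO. Backfat averaged 2.52 ± 0.58 CPM and liver 26.6 ± 2.70 CPM (SD, n = 5 each), with a fitted log2 fold change of -3.40 (standard error 0.19, edgeR adjusted p = 3.33e-08). The highest backfat value was that of backfat 69, the backfat library with the most hepatocyte transcripts, and without it the log2 fold change was -3.54. Whether those transcripts bear on the TIMD4 value was not tested.

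SPI1, CSF1R and CD68 are carried by macrophages of most tissues. SPI1 (ENSSSCG00000013237, chr2:15227850-15245679, plus strand), the gene of PU.1, was at 23.6, 22.6, 31.2, 16.1 and 25.6 CPM in backfat of boars 65, 67, 69, 71 and 72. In liver it was at 30.1, 56.1, 31.7, 45.6 and 44.2 CPM. The tissues met at their edges, with liver 65 just under backfat 69, but liver was higher in 5 of 5 boars, in boar 69 only by 0.02 on the log2 scale. The log2 fold change was -0.80 (standard error 0.22, edgeR adjusted p = 0.00731). SPI1 was highest in backfat 69 and in liver 67, and its log2 fold change was -0.91 without the first and -0.71 without the second (edgeR adjusted p = 0.00511 and 0.0102), while with library size alone the log2 fold change was -0.05 and did not pass (edgeR adjusted p = 0.825).

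CSF1R (ENSSSCG00000014441, chr2:151102138-151130311, minus strand), the receptor for CSF1 and IL34, was the most abundant of the 9 genes in CPM in both tissues. Backfat held 148.0, 134.8, 101.3, 75.4 and 102.9 CPM in boars 65, 67, 69, 71 and 72. Liver held 107.7, 160.1, 99.8, 164.6 and 127.1 CPM. The ranges overlapped, with backfat 71 under all liver libraries and liver 67 and liver 71 above all backfat libraries, and backfat was the higher tissue in 2 of 5 boars. The log2 fold change was -0.23, with a 95% interval from -0.74 to 0.28 (edgeR adjusted p = 0.403), and it was 0.54 with library size alone. The interval leaves room for a difference in either direction but does not reach the values of MARCO, TIMD4 or VSIG4.

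CD68 (ENSSSCG00000017956, chr12:52874754-52877256, plus strand), a glycoprotein of lysosomes and endosomes, was at 22.4, 22.3, 18.0, 15.1 and 23.7 CPM in backfat of boars 65, 67, 69, 71 and 72. Liver held 33.9, 24.4, 25.7, 18.3 and 30.4 CPM. Liver was higher in 5 of 5 boars, though liver 71 lay under 3 backfat libraries. The log2 fold change was -0.39, with a 95% interval from -0.83 to 0.06 (edgeR adjusted p = 0.11), and it was 0.31 with library size alone. Without liver 71 it was -0.52 and passed (edgeR adjusted p = 0.0335).

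TREM2 (ENSSSCG00000039270, chr7:36465921-36471509, minus strand) was scarce in both tissues, with 22 to 80 read pairs per backfat library and 4 to 36 per liver library. Backfat held 0.519, 0.565, 0.740, 0.397 and 1.37 CPM in boars 65, 67, 69, 71 and 72. Liver held 0.200, 0.972, 0.0849, 0.126 and 0.353 CPM. Liver 67 was high for liver and was the only boar in which liver exceeded backfat. The log2 fold change was 1.05 with a standard error of 0.62 and did not pass (edgeR adjusted p = 0.172, 95% interval -0.39 to 2.48). Without liver 67 it was 1.88 and passed (edgeR adjusted p = 0.00977), and with library size alone it was 1.78 (edgeR adjusted p = 0.0191). Without backfat 72, the highest backfat library, it was 0.686 and did not pass (edgeR adjusted p = 0.395). Liver 67 also held 20.6 CPM of neutrophil and monocyte markers (S100A8, S100A12 and CSF3R), against 1.42 to 5.45 CPM in the other livers, and 1837 CPM of red cell markers, against 73.1 to 384.4 CPM. In backfat the neutrophil and monocyte sum ran from 2.99 to 13.6 CPM, and the red cell sum from 110 to 499.2 CPM. Both were highest in backfat 72. The part of these markers in the TREM2 level was not tested.

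**Figure D2:**
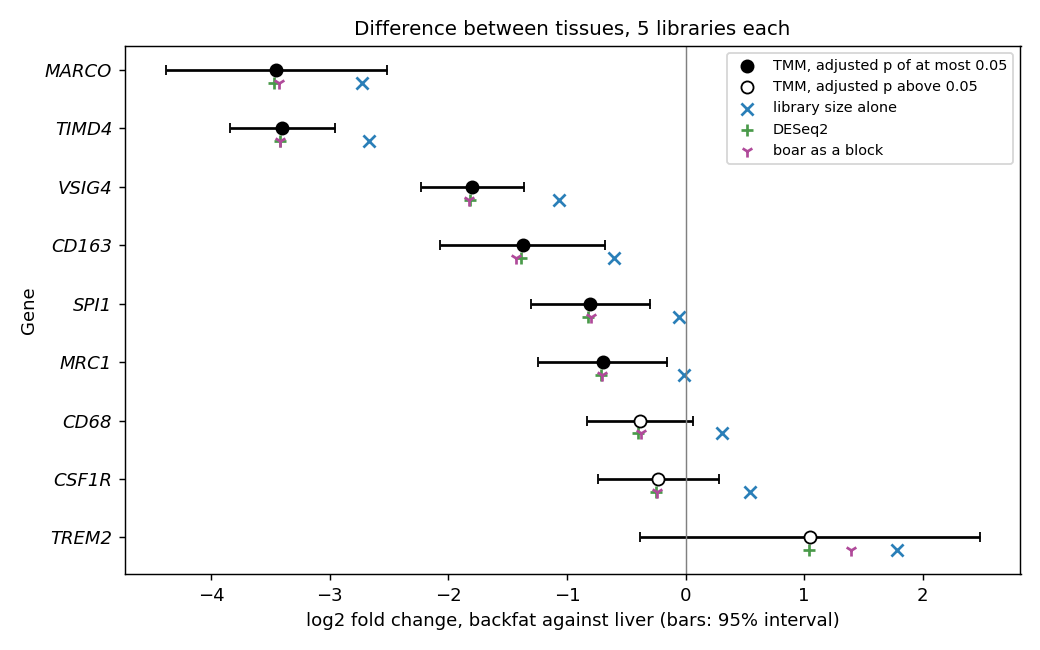
Log2 fold change of backfat against liver for the 9 genes, with 95% intervals (bars), filled circles for an adjusted p of at most 0.05, and small marks below them for library size alone, DESeq2 and the boar as a block. MARCO and TIMD4 lie near -3.4 and CSF1R at -0.23, and with library size alone every gene moves to the right, CSF1R and CD68 past 0.

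Each gene's counts were also divided by the summed counts of 8 genes shared by myeloid and other white cells (PTPRC, TYROBP, FCER1G, AIF1, LAPTM5, CTSS, CD53 and ITGB2), a ratio that no normalization changes and that was given no test. The sum itself ran from 191.3 to 357.6 CPM in backfat and from 301.6 to 467.6 CPM in liver, and 2 of its 8 genes were higher in liver and 0 in backfat at an adjusted p of at most 0.05 (edgeR). Relative to it, 3 of the 9 markers did not overlap between tissues, all with liver above, as did 11.2% of all genes tested, and none had backfat wholly above, as 27.1% of all genes did. TIMD4 amounted to 0.893% ± 0.206 of the sum in backfat and 7.46% ± 1.85 in liver (SD, n = 5 each). MARCO amounted to 1.10% ± 0.422 (SD, n = 5) and 9.26% ± 4.93 (SD, n = 5). VSIG4 amounted to 3.31% ± 0.373 (SD, n = 5) and 9.32% ± 2.28 (SD, n = 5). These are the 3 genes whose liver share was above every backfat share.

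CD163 overlapped on this scale, because backfat 67 at 25.98% lay above liver 65 at 22.3% and liver 72 at 25.1%. CD68 had nearly equal shares, 7.13% ± 1.01 in backfat and 7.28% ± 1.55 in liver (SD, n = 5 each). CSF1R had 38.9% ± 4.54 (SD, n = 5) and 36.6% ± 10.6 (SD, n = 5), MRC1 9.73% ± 2.56 and 12.5% ± 4.19, and SPI1 8.32% ± 1.37 and 11.4% ± 2.84 (SD, n = 5 each). TREM2 had the higher share in backfat, 0.252% ± 0.130 (SD, n = 5) against 0.0853% ± 0.0739 (SD, n = 5), with overlap through liver 67 at 0.208%. The white-cell genes are not limited to macrophages, and lymphocyte markers (8 of the 9 listed, such as CD3E and CD79A) summed to 51.0 to 78.0 CPM in backfat. In liver they summed to 90.0 CPM in liver 67 and to 38.2 to 62.3 CPM in the other libraries.

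**Figure D3:**
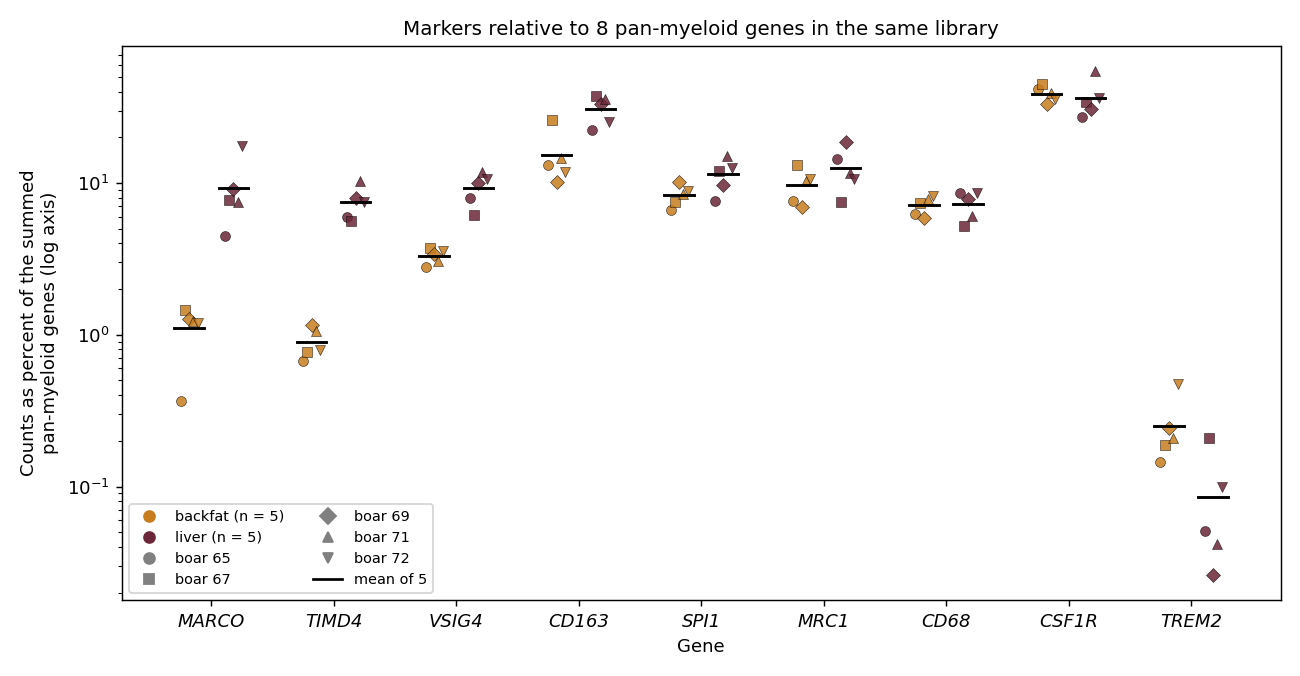
Counts of each marker as a percent of the summed counts of 8 pan-myeloid genes in the same library, on a log axis, with 1 point per library and a bar for the mean of 5. MARCO, TIMD4 and VSIG4 separate by tissue, while CD68 and CSF1R lie at about the same level in both.

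Levels of different genes were compared per length, as TMM-normalized CPM per kilobase of exon. In backfat the order was CSF1R (23.0 ± 5.91), SPI1 (15.8 ± 3.62), CD68 (14.2 ± 2.54), CD163 (5.73 ± 2.71), MRC1 (4.14 ± 1.22), VSIG4 (3.37 ± 0.750), TIMD4 (2.05 ± 0.473), MARCO (1.41 ± 0.565) and TREM2 (0.240 ± 0.129), with the SD over 5 libraries. Only the steps from CD68 to CD163 and from MARCO to TREM2 were free of overlap between neighbours. The broad macrophage genes thus stood above the clearance receptors in backfat. In liver the order was SPI1 (27.6 ± 7.13), CSF1R (26.9 ± 6.05), TIMD4 (21.6 ± 2.19), CD68 (18.5 ± 4.18), MARCO (15.4 ± 7.95), CD163 (14.8 ± 4.64), VSIG4 (11.7 ± 1.26), MRC1 (6.73 ± 1.88) and TREM2 (0.116 ± 0.122). There the steps from VSIG4 to MRC1 and from MRC1 to TREM2 were free of overlap. TIMD4 was the seventh gene in backfat and the third in liver on this scale.

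Among the backfat libraries, backfat 71 had the lowest level of 8 of the 9 genes, all but MARCO, and also the lowest pan-myeloid sum. Backfat 67 was the highest for 4 genes, CD163, MARCO, VSIG4 and MRC1. In liver no library was lowest or highest for most genes: liver 65 was lowest for 4, and liver 67 highest for 3 (CD163, SPI1 and TREM2). In liver, VSIG4 and TIMD4 varied by 1.31-fold and 1.32-fold between the lowest and highest library and MARCO by 3.51-fold.

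Genes related to these markers were taken from 5 lists with 65 distinct genes, 55 of them tested. Of these, 25 were up in liver and 11 in backfat at an adjusted p of at most 0.05 (edgeR), where 27% and 28% of all genes were, and with library size alone 14 and 19, respectively. Among ligands and partners, 4 of the 7 tested were higher in liver and 1 in backfat. IL34, a ligand of CSF1R, averaged 28.9 ± 5.30 CPM over the backfat libraries and 2.35 ± 1.09 CPM over those of liver (SD, n = 5 each), with a fitted log2 fold change of 3.62 (edgeR adjusted p = 4.45e-07). CSF1, the other ligand, averaged 61.2 ± 12.1 CPM and 46.5 ± 11.9 CPM (SD, n = 5 each). Its log2 fold change of 0.40 did not pass (edgeR adjusted p = 0.12), but it passed at 0.41 with the boar as a block (adjusted p = 0.0419) and at 1.12 with library size alone. IL34 was thus the CSF1R ligand that passed the test in backfat, while a difference in CSF1R itself was not detected.

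C3, whose fragments VSIG4 binds, had a log2 fold change of -8.995 (edgeR adjusted p = 4.17e-07), with between 6809 and 21930 CPM in liver. APOE, a lipid carrier that TREM2 can bind, had one of -3.60 (edgeR adjusted p = 0.000657). Both are made in bulk by hepatocytes. SYK, a kinase downstream of TYROBP, had -1.74, and HMOX1, which breaks down the haem that CD163 brings in, had -1.37 (edgeR adjusted p = 0.000664 and 0.00132). HMOX1 did not pass with library size alone, at -0.66. TYROBP, the adaptor through which TREM2 signals, had -0.43 and did not pass (edgeR adjusted p = 0.166), and 0.325 with library size alone. HP, the haptoglobin gene, had no identifier under its symbol.

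Structural and sequence relatives of the markers went both ways, with 8 of 14 tested higher in liver and 2 in backfat, or 4 and 4 with library size alone. MRC2, a collagen-binding relative of MRC1 known from fibroblasts, averaged 225.4 ± 42.0 CPM over the backfat libraries and 19.0 ± 11.3 CPM over those of liver (SD, n = 5 each), with a fitted log2 fold change of 3.57 (edgeR adjusted p = 1.05e-05). COLEC12, a scavenger receptor of the endothelium and stroma, had 3.20 (edgeR adjusted p = 6.06e-06). HAVCR2, of the TIM family like TIMD4, had -3.12, and LY75, a relative of MRC1 on dendritic cells, had -3.10 (edgeR adjusted p = 8.22e-05 and 0.000119). Dendritic cell markers (5 of the 6 listed, such as XCR1 and FLT3) summed to 17.0 to 30.3 CPM in backfat. In liver they summed to 52.7 CPM in liver 67 and to 15.3 to 24.6 CPM in the other libraries. Of the 5, 3 were higher in liver, XCR1 and FLT3 among them, and 1, ZBTB46, in backfat. ZBTB46, the largest part of the backfat sum, averaged 18.0 ± 5.04 CPM in backfat and 8.72 ± 4.77 CPM in liver (SD, n = 5 each). XCR1 averaged 1.51 ± 1.11 CPM in backfat and 3.85 ± 1.79 CPM in liver, and FLT3 0.880 ± 0.438 and 5.38 ± 2.28 CPM.

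Of 12 transcription factors of the lineage that were tested, 4 were higher in backfat and 2 in liver, or 5 and 2 with library size alone. IRF8, which works with PU.1, had a log2 fold change of -1.85, and NR1H3, the oxysterol receptor LXR-alpha that Kupffer cells depend on, had -1.76 (edgeR adjusted p = 0.00128 and 8.33e-05). IRF8 ranged from 17.7 to 70.0 CPM in liver, and without liver 67 it had -1.605 (edgeR adjusted p = 0.00234). Hepatocytes and fat cells also express NR1H3. KLF4 had 4.26 and ID3 1.18 (edgeR adjusted p = 1e-05 and 0.00443). Both are also expressed by vascular cells, and markers of continuous endothelium (PECAM1, CDH5, TEK and KDR) summed to 663.4 to 1190 CPM in backfat and 120 to 193.3 CPM in liver. Their part in these 2 values was not tested.

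Of 11 other tissue macrophage genes tested, 7 were higher in liver and 1 in backfat, with a median log2 fold change of -1.05, and with library size alone 4 and 1. SIGLEC1, the sialic acid receptor of macrophages, averaged 4.07 ± 1.15 CPM over the backfat libraries and 43.8 ± 4.92 CPM over those of liver (SD, n = 5 each), with a fitted log2 fold change of -3.42 (edgeR adjusted p = 8.32e-08). CD14, a co-receptor for lipopolysaccharide that hepatocytes also make, had -4.67 (edgeR adjusted p = 2.2e-07). The complement C1q genes of macrophages, C1QA, C1QB and C1QC, had -1.29, -1.05 and -1.08 (edgeR adjusted p = 0.000199, 0.00112 and 0.00155), and with library size alone C1QB and C1QC did not pass, at -0.34 and -0.38. MS4A7 was the gene of this list higher in backfat, at 2.73 ± 1.21 CPM against 0.258 ± 0.117 CPM (SD, n = 5 each), with a fitted log2 fold change of 3.38 (edgeR adjusted p = 3.43e-05).

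Genes of lipid-associated macrophages, the state known for TREM2, had shares of calls near those of all genes, with 3 of 11 tested higher in backfat and 4 in liver, with a median log2 fold change of 0.43. With library size alone 7 were higher in backfat and 1 in liver, and without liver 65 there were 5 higher in backfat. FABP5, a fatty acid binding protein that fat cells also express, had 6.42, and LGALS3, the lectin galectin-3, had 4.38 (edgeR adjusted p = 3.05e-08 and 3.98e-05). ACP5, an acid phosphatase of macrophages and osteoclasts, had -2.61, and SPP1, the secreted phosphoprotein osteopontin, had -1.51 (edgeR adjusted p = 6.07e-05 and 0.0133). SPP1 did not pass with library size alone, at -0.815. Cycling cell markers (TOP2A, CCNB1 and CDK1) summed to 24.4 to 54.5 CPM in backfat and 15.9 to 26.2 CPM in liver, with 1 of 3 higher in backfat.

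**Figure D4:**
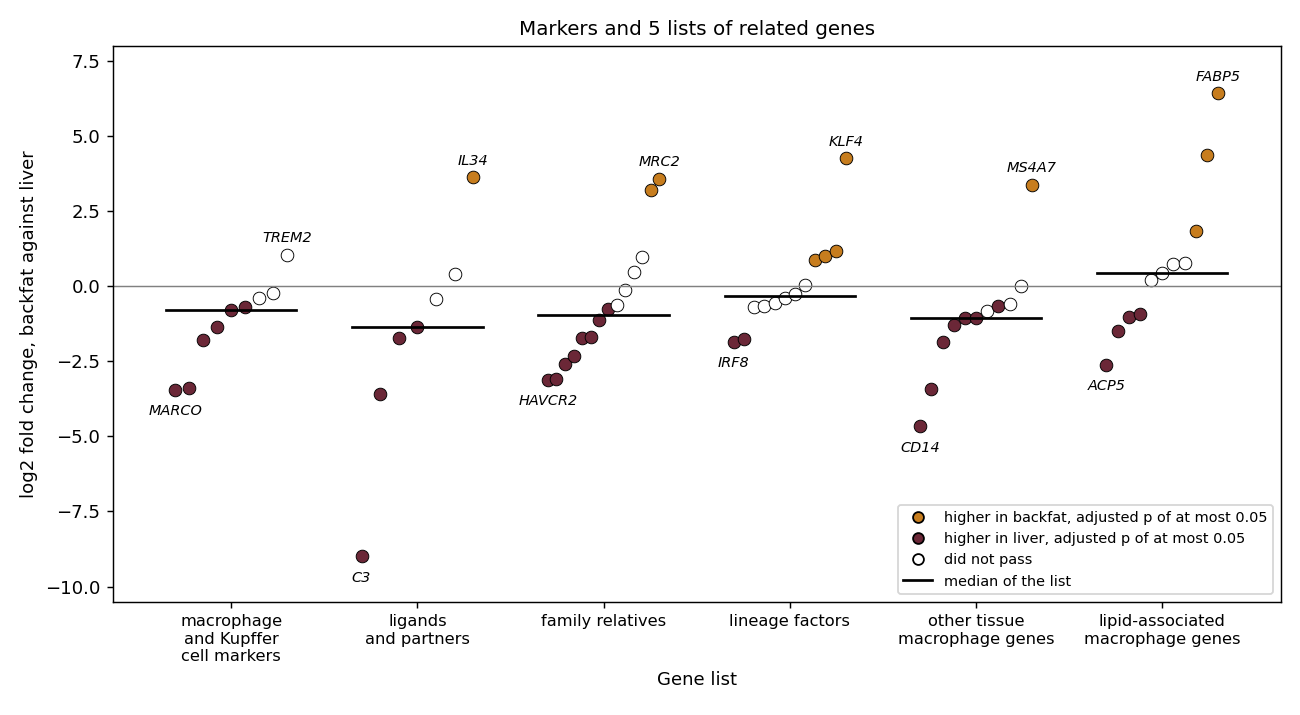
Log2 fold change of backfat against liver for each gene tested of the 9 markers and of 5 related lists, coloured by call, with the median of each list as a bar and the extreme genes named. The markers run from MARCO at -3.45 to TREM2 at 1.05, and the medians from -1.37 for ligands and partners to 0.43 for lipid-associated macrophage genes, and with library size alone the median of all genes lies 0.71 higher.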

How the data were processed

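Per the file headers and the study's methods, the authors removed adapters with Trimmomatic, mapped paired reads with HISAT2 (Sscrofa11.1) and ran featureCounts 2.0.1 over the exons of Ensembl release 99, without strand. The deposited values are raw counts per gene. From these, edgeR 4.0.16 in R 4.3.3 was used with filterByExpr, TMM, the quasi-likelihood test with tissue as the only term, and Benjamini-Hochberg adjustment. Standard errors are the size of the log2 fold change over the square root of F, and 95% intervals from the t distribution with 8 degrees of freedom. The study used DESeq2, which was run here (1.42.0) beside limma 3.58.1 (voom), other scalings and filters, a boar block and leaving out each library. On simulated counts for 16087 genes, edgeR recovered 172 of 200 genes simulated at a log2 fold change of 2, with 10 false calls. The changed genes were well counted and balanced in direction. The simulation therefore does not test the choice of scaling or genes as scarce as TREM2. Markers and lists were chosen with earlier results of these data known. Of each related list, the 2 genes with the largest change per direction among those passing were named, and CSF1, TYROBP, SYK, HMOX1 and the C1q genes were added after their values were seen. The positions given for the markers are those of the RefSeq annotation of Sscrofa11.1, which shows no gene overlapping a marker. Overlap in the Ensembl annotation, over which reads were counted, was not examined. Boar numbers come from the column names, and the study sampled both tissues of 5 boars. Deviations of same-boar libraries from their tissue means correlated across genes at 0.049 to 0.238. Where nothing more is known of the sampling, p-values measure only the spread between these libraries. Some listed items are not reported here and were left out of the lists and sums. Figures were made with matplotlib 3.10.9.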

Additional observations from a re-analysis of the deposited data

Results flagged for a closer look

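In 3 of 18 sets of 5 libraries, the level of a marker in 1 library was farther from the others than Dixon's criterion allows. Chance gives about 1 in 20 for independent sets. These sets share the same libraries and are not independent, so the count cannot be set against that share. CD163 was at 174.2 CPM in liver 67, with 108.2 CPM in the next liver library. VSIG4 was at 5.84 CPM in backfat 71, with 10.1 CPM in the next backfat library. TIMD4 was at 3.53 CPM in backfat 69, with 2.41 CPM in the next.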

How the results depend on the processing

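Of the alternatives, scaling by library size alone moved most: 3 markers were higher in liver and 1 in backfat, 14 related genes were higher in liver and 19 in backfat, and the log2 fold changes of CSF1R (0.54), CD68 (0.31) and TYROBP (0.325) turned positive. It moves the median of all genes by 0.71, and upper-quartile factors move it by 0.101. Leaving out 1 library at a time gave 5 to 7 markers higher in liver and 0 to 1 higher in backfat. Without liver 67 and backfat 69 together, chosen after the data were seen, 6 were higher in liver and 1, TREM2, in backfat. With the boar as a replicate block, 6 markers were higher in liver and 0 in backfat, and of the genes named only CSF1 changed its call. MARCO, TIMD4 and VSIG4 stayed past the threshold in all 20 alternatives. Related genes moved both ways without liver 67. HAVCR2 (-2.75), LY75 (-2.71) and SYK (-1.455) had log2 fold changes smaller in size, and KLF4 (4.85) and LGALS3 (4.94) larger ones. Without backfat 69, ID3 (0.904) and MS4A7 (3.11) had smaller ones and SPP1 (-2.10) a larger one. Each of these stayed past the threshold. TREM2, with as few as 4 read pairs in a library, was left out by the filter of 10 counts in every library, and so was MS4A7.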
